A study of Mus musculus with 6 samples.

Results

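The imprinted growth genes described here are Igf2, Dlk1, Plagl1, Peg3 and Mest, which are expressed from the paternal allele, and H19, Meg3, Cdkn1c, Grb10 and Igf2r, which are expressed from the maternal allele in most tissues. They were chosen by name, and every probe set of the array annotated to them was taken. This gave 31 probe sets for 10 genes, out of 45037 probe sets and 18193 genes in all. The series set mouse embryo samples labelled as Sp3 knockout hearts against samples labelled as wildtype hearts. There were 3 arrays in each group, lettered a to c. The labels give E12.5 for all embryos and describe the RNA of each array as that of a single heart. Markers below go against a single embryo for knockout c, and against heart as the main tissue for every array. The allele of the knockout, the strain and the sex of the embryos are not given in the sources used here. Sp3 is a DNA-binding regulator of the Sp family, whose zinc fingers recognise short GC-rich motifs called GC boxes.

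Imprinted genes are read from the copy of 1 parent only, through methylation marks that are set in the germ line. Many of them act on growth before birth, and paternally expressed members tend to promote growth while maternally expressed members tend to restrain it. Igf2 and H19 lie side by side and share enhancers, and Dlk1 and Meg3 form a similar pair. The arrays measured the total transcript of each gene and could not tell the alleles apart, so "paternal" and "maternal" below name the known expressed copy and not a measurement.

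Levels are log2 of the deposited intensities, and differences are knockout minus wildtype on that scale. Array medians ran from 22.5 to 26.7 intensity units, lowest in wildtype b, and the number of arrays limits the precision. The Sp3 probe set was lower in every knockout array, at 8.39, 8.34 and 8.61 against 9.87, 9.77 and 9.54, with limma adjusted p = 0.00254. Both of the following facts touch all results. Liver transcripts were bright in arrays labelled heart: Afp, the fetal serum protein of the liver, averaged 13.29 ± 0.06 over the knockout and 13.28 ± 0.03 over the wildtype arrays (SD, n = 3 each). Of 14 heart muscle markers 9, Myh6 and Nkx2-5 among them, were dimmer than the median probe set. Over the arrays the summed intensity of these 14 ran from 298 to 908. It ran from 37714 to 44171 for 12 liver markers and from 36440 to 46906 for 10 red cell markers. Knockout c had Xist, the RNA of the inactive X, at 10.55, as in wildtype a at 10.63, together with the Y-linked Eif2s3y at 6.64 against 1.34 in wildtype a, which goes against RNA from 1 embryo. Values without knockout c are given beside many of the differences that it moves, though not all of them.

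The H19 transcript also carries a microRNA, miR-675, and the only H19 probe set is annotated to both H19 and Mir675. RefSeq places the Mir675 hairpin inside H19, so this probe set is written H19/Mir675. It reads the host transcript's annotation and gives no measure of the mature microRNA. The mature forms that H19 encodes are shown here with bases 2 to 8, the seed that pairs with targets, in capitals (RefSeq, GRCm38.p6, chromosome 7, minus strand, chr7:142577112-142577133 and chr7:142577078-142577099).
mmu-miR-675-5p: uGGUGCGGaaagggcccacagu
mmu-miR-675-3p: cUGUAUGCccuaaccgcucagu
The arms do not share a seed.

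Since Sp3 binds GC boxes, the promoters of the members were searched for GGGCGG and its reverse complement CCGCCC in the 250 bases before each annotated start, with overlapping matches counted separately. The RefSeq table held 15 promoters for 8 of the 10 genes, without H19 and Cdkn1c. Of these, 8 held at least 1 match, 53.3%, against 32.7% of all 32851 promoters in the table. By gene, 5 of the 8 had a match, and a pair of the Mest promoters overlap and share theirs. Several of the 15 promoters belong to the same gene, and no share by gene was taken over the whole table. Most of the 15 also held more CG pairs than the median of 6 over all promoters, which was not adjusted for. A match is only a run of letters and does not show that Sp3 binds there. The sequences below are those with 2 or more matches, plus 1 Meg3 promoter, which held 0, for comparison. All are from GRCm38.p6, written 5′ to 3′ on the gene's strand, with the matches in capitals.
Igf2, chr7:142657497-142657746, minus strand: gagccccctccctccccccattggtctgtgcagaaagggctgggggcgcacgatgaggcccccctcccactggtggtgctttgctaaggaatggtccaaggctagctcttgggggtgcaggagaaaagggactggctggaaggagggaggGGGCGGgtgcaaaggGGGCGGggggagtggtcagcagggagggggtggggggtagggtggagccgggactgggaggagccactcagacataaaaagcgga
Plagl1, chr10:13090582-13090831, plus strand: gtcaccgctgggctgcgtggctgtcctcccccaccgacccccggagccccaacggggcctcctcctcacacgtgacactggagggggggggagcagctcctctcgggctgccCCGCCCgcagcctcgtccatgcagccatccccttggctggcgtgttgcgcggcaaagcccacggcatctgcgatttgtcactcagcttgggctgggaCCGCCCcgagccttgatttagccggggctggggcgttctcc
Grb10, chr11:12037421-12037670, minus strand: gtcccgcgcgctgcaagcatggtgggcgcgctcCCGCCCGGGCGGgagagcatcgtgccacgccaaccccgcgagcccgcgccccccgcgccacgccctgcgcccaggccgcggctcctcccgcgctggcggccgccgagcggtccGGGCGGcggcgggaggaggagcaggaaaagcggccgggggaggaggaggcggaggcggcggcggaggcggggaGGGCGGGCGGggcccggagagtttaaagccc
Igf2r, chr17:12769707-12769956, minus strand: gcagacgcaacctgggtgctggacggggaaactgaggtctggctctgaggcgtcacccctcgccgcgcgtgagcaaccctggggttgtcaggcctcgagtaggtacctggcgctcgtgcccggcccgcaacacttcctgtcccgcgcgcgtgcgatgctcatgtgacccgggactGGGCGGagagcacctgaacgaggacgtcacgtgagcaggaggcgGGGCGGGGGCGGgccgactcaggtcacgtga
Meg3, chr12:109540746-109540995, plus strand: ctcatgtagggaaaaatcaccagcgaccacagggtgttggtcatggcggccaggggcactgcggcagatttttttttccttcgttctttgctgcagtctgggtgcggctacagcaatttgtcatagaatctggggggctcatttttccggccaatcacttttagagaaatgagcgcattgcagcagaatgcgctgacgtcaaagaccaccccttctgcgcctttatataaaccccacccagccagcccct
Grb10 had 5 matches, Igf2r 3, and Igf2 and Plagl1 2 each. No probe set of these genes or of Meg3 passed the test between the groups, as given next.

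Every member was bright. The brightest probe set of each of the 10 genes lay above the 95th percentile of all probe sets, and 9 of the 10 above the 98th, where 2.54% of all genes had theirs. The level of a probe set also depends on its sequence, so members are not ranked against each other. No member passed the test: limma with an intensity trend called 0 of the 31 probe sets at an adjusted p under 0.05, where it called 14 of all probe sets, 0.0311%. The smallest adjusted p among the members was 0.541, and 3 of the 31 had an unadjusted p under 0.05, where 7.16% of all probe sets did. Without the trend limma also called 0 members, and 0 of all probe sets. The groups did not overlap in 2 member probe sets, both higher in knockout, which is 6.45% where 6.15% of all probe sets were higher without overlap and 6.89% lower. By gene, at the brightest probe set, 0 of the 10 passed, where 0.0495% of all genes did.

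**Figure D1:**
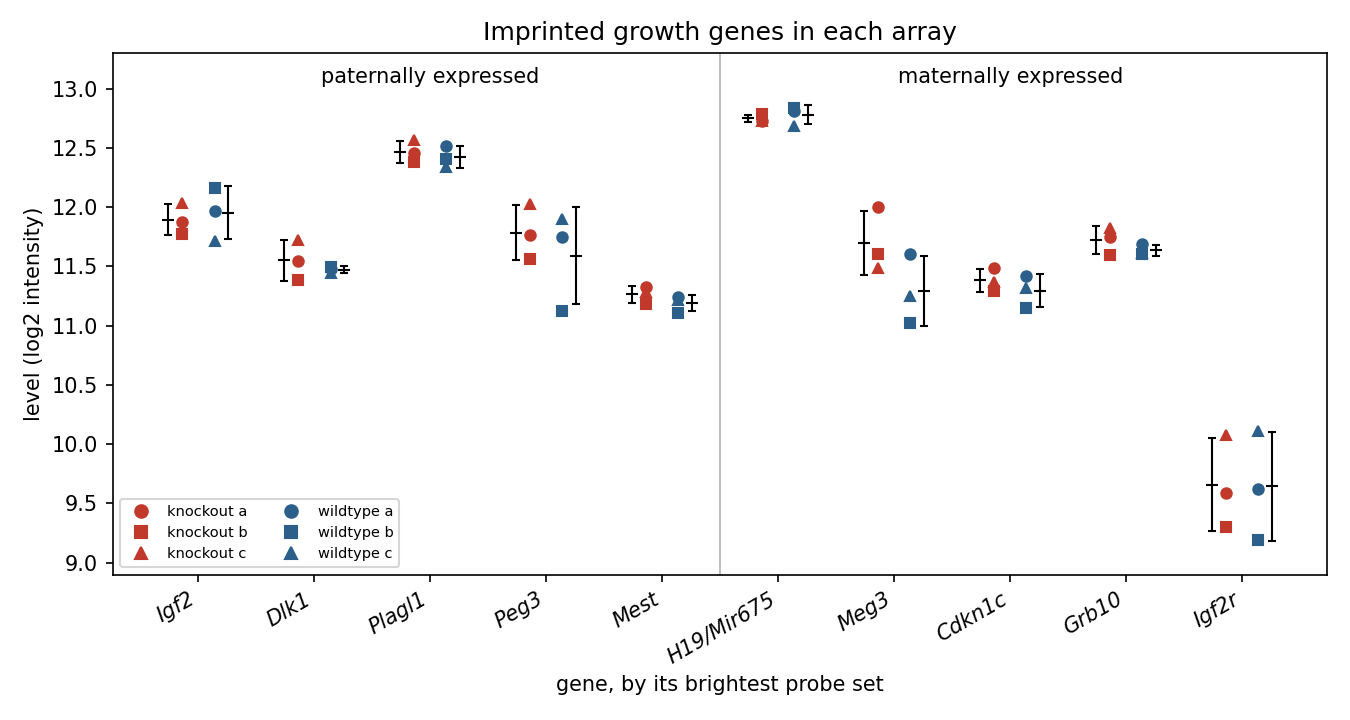
Level of each gene at its brightest probe set, as log2 intensity on the vertical axis, in 3 Sp3 knockout arrays (red) and 3 wildtype arrays (blue). Bars are mean ± SD, and the groups overlap for every gene, and Igf2r has the widest spread within each group.

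Igf2, the fetal insulin-like growth factor, showed no detectable difference. Its brightest probe set (1448152_at) measured 11.87, 11.77 and 12.03 in the knockout arrays, always in the order a, b, c, against 11.97, 12.16 and 11.72 in the wildtype arrays. The groups overlapped fully, with the highest and the lowest array both wildtype. The difference was -0.06 with a 95% interval from -0.29 to 0.17, which in fold is 0.819 to 1.13 (limma adjusted p = 0.917). It was -0.13 without knockout c and 0.05 without wildtype b. The other Igf2 probe set, far dimmer, averaged 6.55 ± 0.14 against 6.25 ± 0.79 in wildtype (SD, n = 3 each), with wildtype b lowest at 5.35, and the difference of 0.30 was -0.15 without that array. Wildtype b was thus the highest array at 1 Igf2 probe set and the lowest at the other, and over the 6 arrays the pair had r = -0.83, a description over arrays that share their RNA and chip.

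H19/Mir675, the untranslated RNA next to Igf2, had the narrowest interval of the members. It (1448194_a_at) was at 12.73, 12.78 and 12.73 in knockout and at 12.81, 12.84 and 12.69 in wildtype. The groups overlapped, with the highest and the lowest array both wildtype. The difference was -0.03, with an interval from -0.16 to 0.10, in fold 0.893 to 1.07. The brightest value on any array was 13.65.

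Igf2r, the receptor that takes up and degrades Igf2, had a wide spread within both groups. Its brightest probe set (1424112_at) was at 9.59, 9.30 and 10.08 in knockout and at 9.62, 9.19 and 10.11 in wildtype. Arrays c were high and arrays b low in both groups, and the group means were nearly the same. The difference was 0.01, with an interval from -0.64 to 0.67, in fold 0.642 to 1.59. It was -0.20 without knockout c and -0.21 without wildtype b. The other Igf2r probe set was at 8.62 ± 0.30 and 8.55 ± 0.33 (SD, n = 3 each). One more probe set is annotated to both Igf2r and Airn, the antisense RNA that silences the paternal Igf2r copy. It was at 4.48, 0.91 and 4.37 in knockout and at 3.99, 1.32 and 3.62 in wildtype, and was not counted as a member.

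Grb10, an adaptor that dampens signals from the insulin and IGF receptors, also overlapped between the groups. Its brightest probe set (1425458_a_at) was at 11.74, 11.60 and 11.83 in knockout and at 11.69, 11.61 and 11.61 in wildtype, a difference of 0.09 with an interval from -0.08 to 0.25. Knockout c was highest and knockout b lowest, and the difference was 0.03 without knockout c. Of the other Grb10 probe sets, 1425457_a_at differed by -0.02. The last, 1430164_a_at, was at 7.40, 7.51 and 7.80 in knockout and at 7.15, 6.63 and 7.55 in wildtype. There the lowest 2 arrays were wildtype, the difference was 0.46 (limma adjusted p = 0.707), and it was 0.22 without wildtype b.

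Cdkn1c, an inhibitor of cyclin-dependent kinases that limits cell division in the embryo, had a single probe set, 1417649_at. It was at 11.49, 11.29 and 11.37 in knockout and at 11.42, 11.15 and 11.32 in wildtype. Knockout a was highest and wildtype b lowest, and the difference of 0.09 had an interval from -0.10 to 0.28.

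Dlk1, a membrane and secreted protein of the Notch ligand type that marks fetal liver precursors, had 1449939_s_at as its brightest probe set, at 11.55, 11.38 and 11.72 in knockout and at 11.48, 11.49 and 11.44 in wildtype. All 3 wildtype arrays fell inside the range of the knockout arrays. The difference was 0.08, with an interval from -0.11 to 0.27, and it was -0.01 without knockout c. The dimmer Dlk1 probe set ran from 2.48 in wildtype b to 4.69 in wildtype a, so its difference of 0.14 had an interval from -1.31 to 1.59, and was 0.46 without knockout c and -0.46 without wildtype b.

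Plagl1, a zinc finger factor that regulates other imprinted genes, was at 12.45, 12.38 and 12.57 in knockout and at 12.52, 12.41 and 12.34 in wildtype at its brightest probe set. These values overlapped, with a difference of 0.05 and an interval from -0.11 to 0.20, and the difference was -0.0039 without knockout c. A further Plagl1 probe set, 1450533_a_at, was at 7.59, 7.63 and 7.77 in knockout and at 7.48, 7.04 and 7.38 in wildtype. It is 1 of the 2 member probe sets without overlap. Its difference of 0.36 did not pass (limma adjusted p = 0.685), and it was 0.23 without wildtype b. The remaining one was at 5.18 ± 0.28 and 4.67 ± 0.83 (SD, n = 3 each) and overlapped. The brightest set, 1426208_x_at, has the suffix that the maker gives to probes that may match other transcripts, as has the brightest set of Meg3.

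Mest, a hydrolase-like protein of mesoderm, has the single probe set 1423294_at, which was at 11.33, 11.19 and 11.29 in knockout and at 11.24, 11.11 and 11.22 in wildtype. The groups overlapped by a small margin, and the difference of 0.08 had an interval from -0.09 to 0.24. With each array centred on its median this difference was -0.00066, and with quantile normalization it was 0.15, so its direction and size depend on the scaling.

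Peg3, a zinc finger protein tied to maternal behaviour and growth, gave different pictures at bright and at dim probe sets. Its brightest probe set (1417355_at) was at 11.77, 11.56 and 12.03 in knockout and at 11.75, 11.13 and 11.90 in wildtype. Wildtype b stood lowest, and the difference of 0.19 became -0.04 without it and 0.07 without knockout c. The next 2 probe sets differed by 0.13 and -0.05, with intervals from -0.11 to 0.37 and from -0.36 to 0.25, and by 0.02 and -0.16 without knockout c. The dimmest, 1447731_at, was at 2.51, 2.42 and 2.90 in knockout and at -1.14, -0.27 and -0.01 in wildtype. These groups lay far apart, and the difference of 3.08 had an interval from 1.09 to 5.06. With 16 intensity units added before log2 it was 0.40. It did not pass over all probe sets (limma adjusted p = 0.541), its wildtype level lay within the dimmest 10% of probe sets, and the size is therefore not exact. The remaining probe set, also dim, was at 2.43 ± 1.23 and 1.56 ± 1.48 (SD, n = 3 each), a difference of 0.87, or 1.51 without knockout c and 1.71 without wildtype b.

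**Figure D2:**
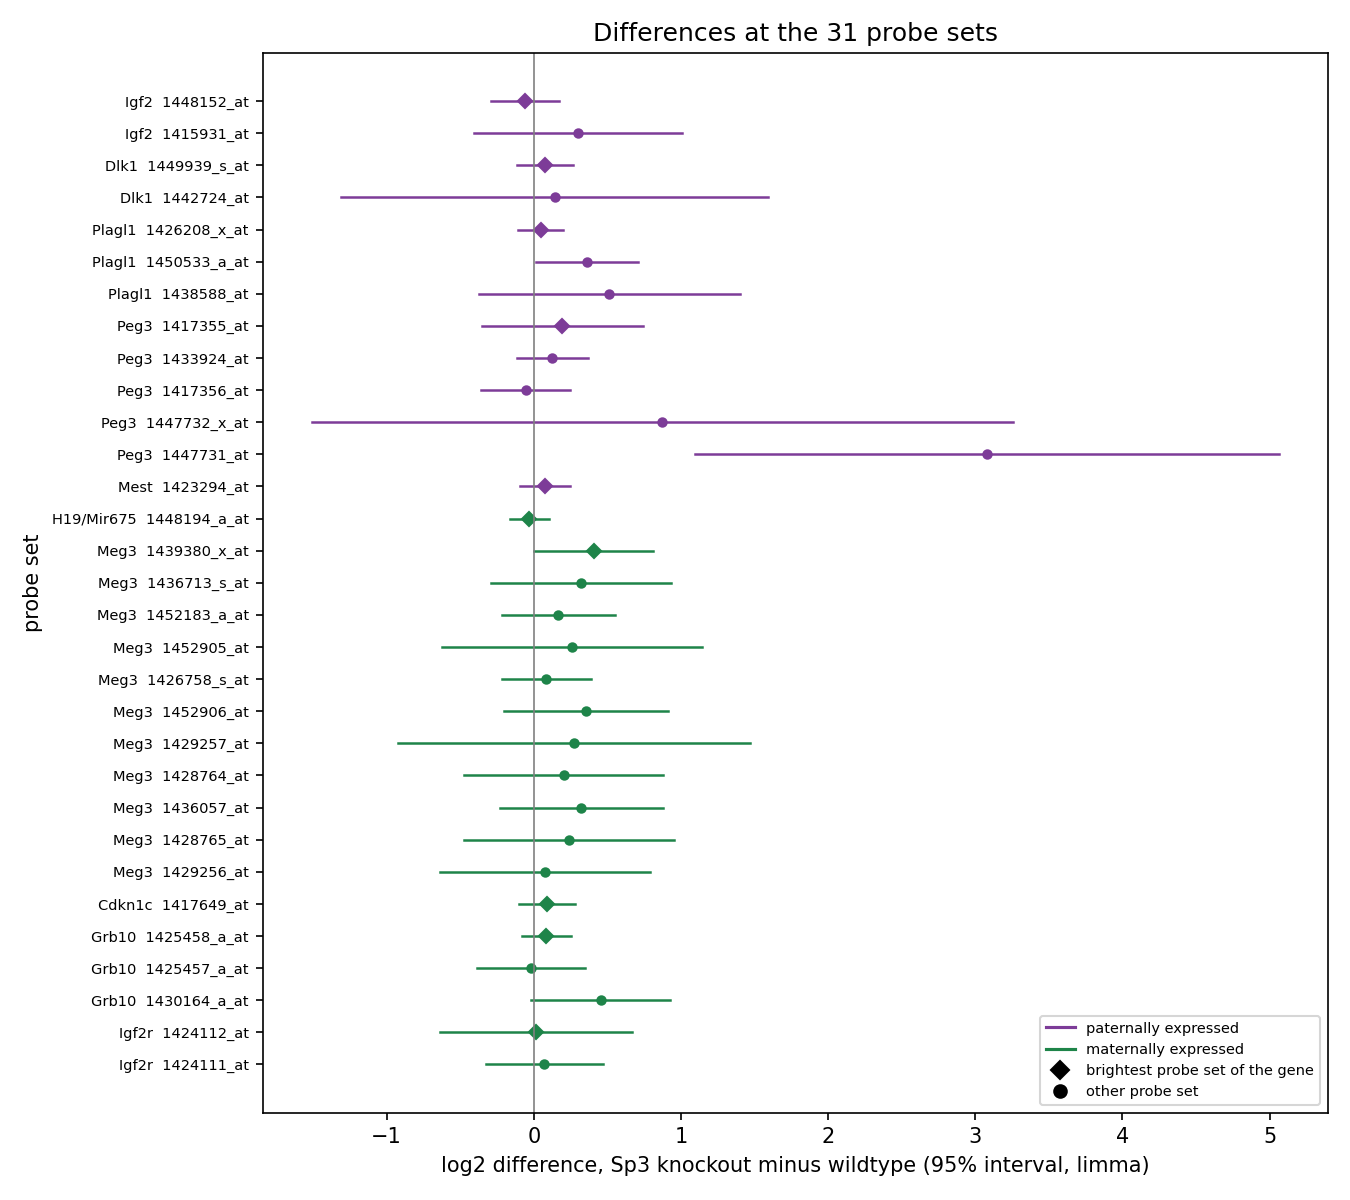
Log2 difference between Sp3 knockout and wildtype, horizontally, for the 31 probe sets of the 10 genes, grouped by gene, with 95% intervals from limma that are not adjusted for the number of probe sets. Most intervals include 0, and the exceptions are the dimmest Peg3 set at 3.08, 1 Plagl1 set at 0.36 and the brightest Meg3 set at 0.41.

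Meg3, the untranslated RNA of the Dlk1 domain, was higher on average in knockout at all 11 of its probe sets, by 0.08 to 0.41 (1 of them, 1429256_at, was lower after quantile normalization or median centring), and overlapped between the groups at each. The brightest, 1439380_x_at, was at 12.00, 11.60 and 11.49 in knockout and at 11.60, 11.02 and 11.25 in wildtype. Its difference was 0.41 (limma adjusted p = 0.697), 0.27 without wildtype b and 0.51 without knockout c. With the array letter as a replicate block this probe set passed (limma adjusted p = 0.0373), though the letters were not taken as pairs. Knockout a was highest there. At 8 of the 11 probe sets knockout c was highest, and at 9 wildtype b was lowest. The direction at many of the probe sets thus leaned on these arrays. The brightest stayed higher with either left out, as did 1436713_s_at, 1452906_at, 1436057_at and 1429256_at. Averaged over its probe sets, each relative to its own mean over the 6 arrays, Meg3 stood at 0.01, -0.11 and 0.48 in knockout and at -0.03, -0.51 and 0.18 in wildtype. The median difference of 0.26 over the probe sets was 0.07 without wildtype b and -0.003 without knockout c. Without knockout c, 5 of the 11 remained higher on average, and without wildtype b, 7. The probe sets target 1 transcript family and are not independent measurements.

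Neighbouring RNAs of the same maternal domain overlapped between the groups as well. Rian, which hosts small nucleolar RNAs, was at 9.03, 8.78 and 9.30 in knockout and at 9.04, 8.45 and 8.98 in wildtype. Mirg, which hosts microRNAs, was at 7.33, 6.76 and 7.50 and at 7.34, 6.74 and 7.52. In both, arrays c and a stood above arrays b in each group. Rian differed by 0.22 and Mirg by 0.00 to 2 decimals, with intervals from -0.15 to 0.59 and from -0.51 to 0.51. Without wildtype b they differed by 0.03 and -0.23, and without knockout c by 0.08 and -0.15.

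**Figure D3:**
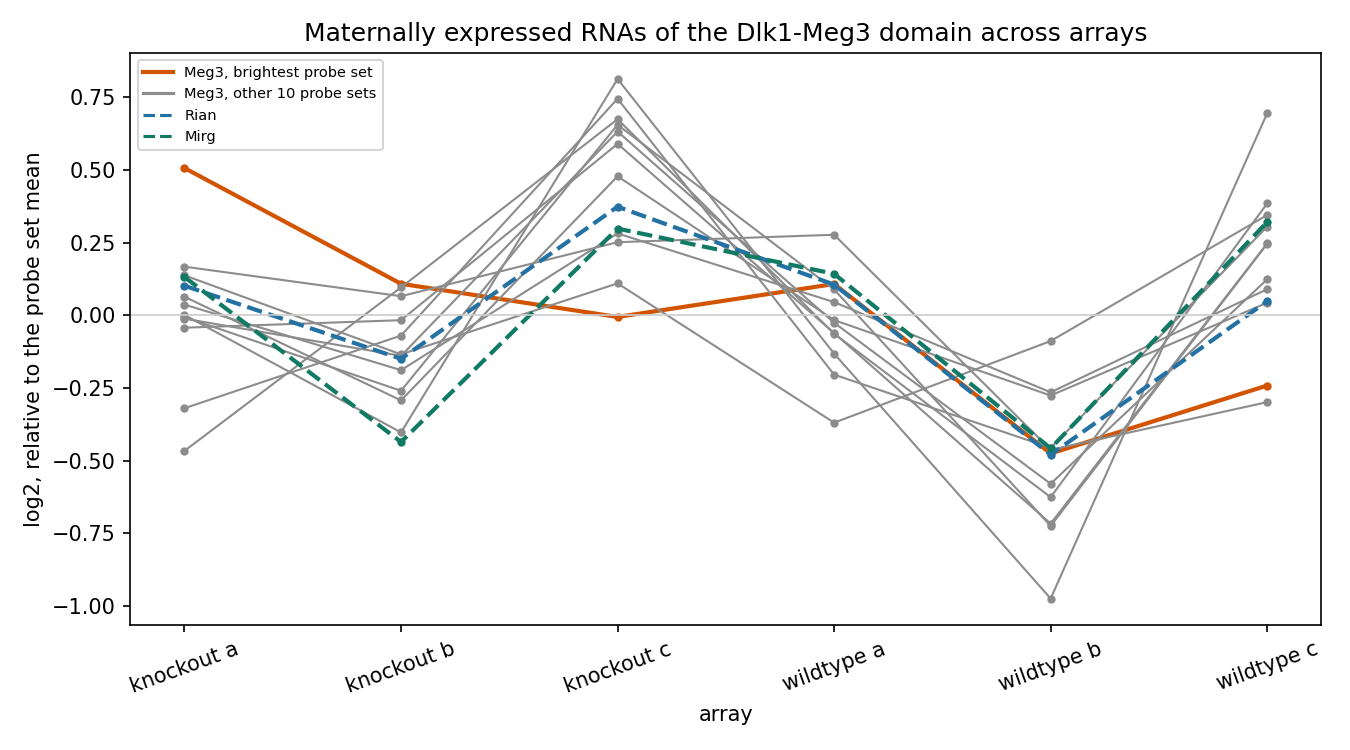
Level of each of the 11 Meg3 probe sets, of Rian and of Mirg in each array, as log2 relative to the mean of that probe set over the 6 arrays. Most Meg3 sets peak in knockout c and reach their lowest value in wildtype b, while the brightest set peaks in knockout a.

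The balance of paternally against maternally expressed members overlapped between the groups. For each array, every gene was taken at its brightest probe set as its distance from its own mean over the 6 arrays, and the 5 genes of each kind were averaged. The paternally expressed genes stood at 0.03, -0.10 and 0.17 in the knockout arrays and at 0.03, -0.10 and -0.04 in the wildtype arrays. The maternally expressed genes stood at 0.12, -0.07 and 0.11 in knockout and at 0.04, -0.22 and 0.01 in wildtype. Both kinds were lowest in arrays b. Paternal minus maternal gave -0.09, -0.03 and 0.06 in knockout and -0.01, 0.13 and -0.05 in wildtype, with means of -0.02 ± 0.07 and 0.02 ± 0.09 (SD, n = 3 each). The difference of -0.05 was smaller than the spread within either group. It was 0.01 without wildtype b and -0.08 without knockout c. When a gene was taken as the mean of all its probe sets the difference was 0.19, an average that includes the dim Peg3 probe sets.

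**Figure D4:**
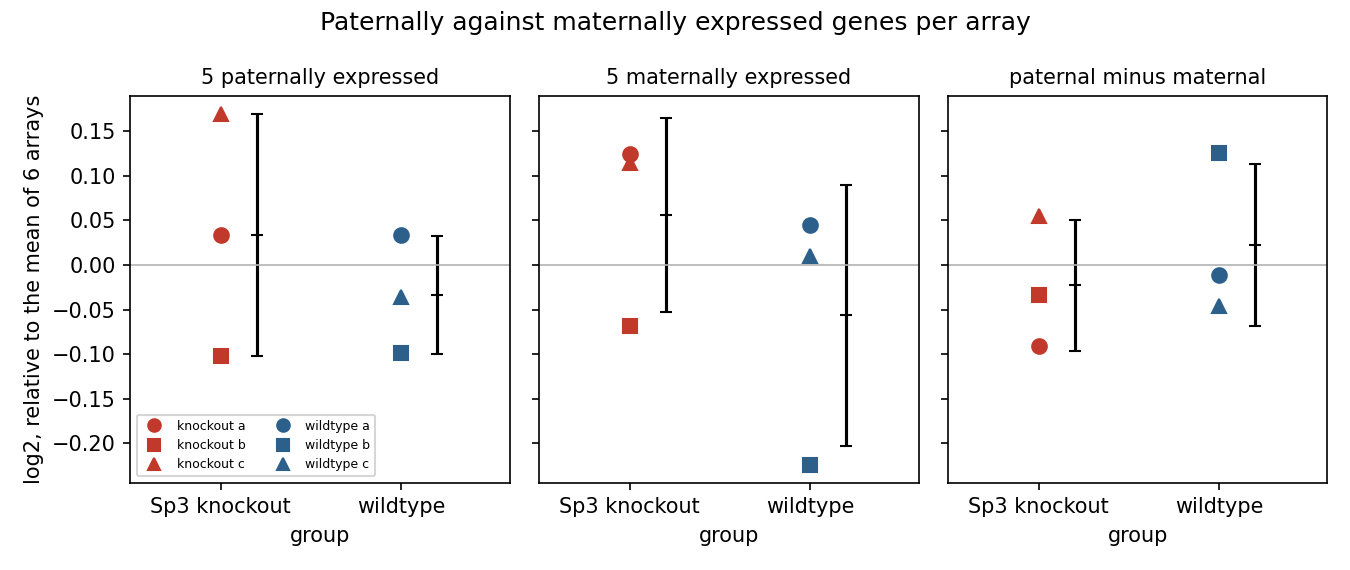
Mean level of the 5 paternally and the 5 maternally expressed genes in each array, and their difference, in log2 units relative to the mean of the 6 arrays. Bars are mean ± SD of 3 arrays, and the groups overlap in every panel, with wildtype b lowest for the maternally expressed genes at -0.22.

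As a whole, 27 of the 31 member probe sets were higher on average in knockout, with a median difference of 0.17, where 52.2% of all probe sets were higher and their median was 0.02. The median over members fell to 0.03 without knockout c and to 0.04 without wildtype b, and 11 of the 31 are Meg3. By gene, 8 of 10 were higher, with a median of 0.08 against -0.02 over all genes. Centring each array on its median brought the median over the 10 genes to 0.00107, while quantile normalization brought it to 0.143. Paternally and maternally expressed genes had medians of 0.08 and 0.09. Wildtype b was the lowest array at 19 of the 31 probe sets, 61.3% against 25.8% of all probe sets, and knockout c the highest at 18, 58.1% against 21.2%.

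Markers of other cells also differed between these arrays, and their part in the members' values was not tested. The list average of 12 mesenchyme markers was higher in knockout without overlap, at 0.20, 0.05 and 0.14 against 0.02, -0.41 and -0.00 in wildtype. By gene, 1 of the 12 was higher without overlap, 8.33% where 6.02% of all genes were. Wildtype b was the lowest array for 8 of them. The list's difference of 0.26 was 0.12 without wildtype b. The summed intensity of the 12 overlapped, from 7804 to 8783 in knockout and from 6436 to 7935 in wildtype. None of these markers lay below the median level. The heart muscle list was higher too, with sums from 854 to 908 against 298 to 802, lowest in wildtype b. Skeletal muscle and neural lists overlapped between the groups, with wildtype b lowest in each at -1.13 and -1.02. Macrophage markers, all 10 of which were lower on average, summed to 1225 to 2081 in knockout and 2412 to 2714 in wildtype, lowest in knockout c, and their list difference of -0.62 was -0.33 without it. Liver and red cell sums overlapped, at 37827 to 38230 against 37714 to 44171 and at 36440 to 46664 against 40851 to 46906. By marker, 9 of the 12 liver genes and 8 of the 10 red cell genes were lower on average in knockout. Without overlap 2 liver genes, Alb and Apob, were lower, 16.7% where 9.04% of all genes were, and 0 red cell genes. Alb differed by -0.18 and Apob by -0.40, or by -0.11 and -0.46 without knockout c, and 0 liver markers passed limma. In such whole tissue a lower number of cells of a type cannot be told apart from less RNA per cell. Placental markers were low, with Tpbpa, Psg21, Ctsq and Prl7d1 of the 6 measured below the median level. Their summed intensity ran from 103 to 148 in knockout and from 84 to 95 in wildtype, while their list averages overlapped between the groups.

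The rest of the IGF pathway was measured through 27 further genes. Of these, 0 passed the limma test and 3 had an unadjusted p under 0.05, where 1585 of all 18193 genes did. Without overlap 5 were higher and 0 lower in knockout, 18.5%, where 6.02% of all genes were higher and 9.04% lower in this way. These were Insr, the insulin receptor, Irs1, its docking adaptor, the binding proteins Igfbp2 and Igfbp4, and Pappa, a protease that cuts IGF-binding proteins. Irs1 was at 8.78, 8.64 and 8.95 in knockout and at 8.58, 8.38 and 8.36 in wildtype. Igf1r, the receptor through which Igf2 signals growth, was at 9.13, 8.95 and 9.34 and at 8.62, 8.67 and 8.99. There knockout b fell just under wildtype c, and the difference of 0.37 had limma adjusted p = 0.647. Igfbp2 was at 7.30, 6.77 and 7.22 and at 6.70, 5.54 and 6.69. Its difference of 0.79 was 0.40 without wildtype b. Insr was at 7.77, 7.30 and 7.76 and at 7.21, 7.30 and 7.27, a difference of 0.36, with knockout b above wildtype b only in the third decimal. Over the 27 genes the median difference was 0.08, and -0.02 without wildtype b.

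Among 39 other imprinted genes 0 passed limma and 6 had an unadjusted p under 0.05, where 1585 of all 18193 genes did. On average 26 were higher and 13 lower, which is 66.7% higher against 47.5% of all genes. Their median difference was 0.20, against -0.02 over all genes, and it was 0.01 without wildtype b and 0.08 without knockout c. Those without overlap were 3, all higher and all paternally expressed, which is 7.69% where 6.02% of all genes were higher in this way. Zdbf2, a zinc finger gene that affects growth, was at 6.14, 5.69 and 6.13 in knockout and at 5.37, 4.98 and 5.37 in wildtype, a difference of 0.75 (limma adjusted p = 0.619). Ndn, a MAGE family protein, was at 9.49, 9.48 and 9.47 and at 9.35, 8.86 and 9.25, and its difference of 0.32 was 0.18 without wildtype b. The last was Mkrn3, a ubiquitin ligase, at 3.77 ± 0.14 and 2.64 ± 0.67 (SD, n = 3 each). Ppp1r9a, a maternally expressed actin-binding protein, differed by 0.57, and by 0.34 without wildtype b. Phlda2, a maternally expressed neighbour of Cdkn1c that restrains placental growth, was at 6.65, 6.12 and 6.34 in knockout and at 7.23, 7.03 and 6.64 in wildtype. Only knockout a and wildtype c met there, and the difference of -0.60 did not pass (limma adjusted p = 0.634), while Cdkn1c beside it differed by 0.09.

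Factors that keep imprints were mostly brighter than the median probe set, and 0 of 28 passed limma. An unadjusted p under 0.05 was found for 1 of them, where 1585 of all 18193 genes had one. Dnmt1, the methyltransferase that copies methylation at replication, was at 10.08, 10.04 and 9.91 in knockout and at 10.14, 10.17 and 10.13 in wildtype. Its partner Uhrf1 was at 10.35 ± 0.07 and 10.47 ± 0.05, and Eed, of the Polycomb complex, at 9.67 ± 0.06 and 9.82 ± 0.05 (SD, n = 3 each). These 3 were lower without overlap, by 0.14, 0.12 and 0.15 in size, with intervals that include 0, and Dnmt1 differed by -0.09 without knockout c. Ctcf, which binds the insulator between Igf2 and H19, differed by -0.16, and Trim28, which guards imprints together with Zfp57, by -0.03. Zfp57 and Dnmt3l, a germ cell cofactor of new methylation, were dim and higher without overlap. Dnmt3l was at 3.29, 4.64 and 4.39 in knockout and at 0.69, 0.87 and -0.13 in wildtype, with limma adjusted p = 0.433. Its wildtype level lay within the dimmest 10%, as did that of Zfp57 at 1.18, so neither difference, 3.63 and 1.68, is an exact size. Tet1, which oxidises methylated cytosine, differed by 0.51, by 0.17 without wildtype b and by 0.27 without knockout c. In number, 10.7% of this list was lower and 7.14% higher without overlap, against 9.04% and 6.02% of all genes.

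The patterns of the paired genes over the 6 arrays were compared against 10826 other genes above the median level, as a description only, since 6 points from shared arrays give high values to many genes. Closest to Igf2 were Ccsap, Arnt and Gng12, with Pearson r from 0.971 to 0.998, and H19 came at place 326 with r = 0.65. For H19 the closest were Gp5, Pagr1a and Plekhg5, with r from 0.9746 to 0.9754, and Igf2 came at place 1071. Dlk1 was most like Lrch2, Tcf15 and Zfp654, from 0.984 to 0.995, with Meg3 at place 4341 and r = 0.12. Meg3, by its brightest probe set, was most like Creb1, Id4 and Foxo1, from 0.989 to 0.997. That probe set had r = 0.33 with the next brightest Meg3 set, where the median over pairs of Meg3 sets was 0.72. The places given for Meg3 and Dlk1 thus describe that probe set and not Meg3 as a whole. Among the members themselves, Mest and Cdkn1c had r = 0.95 and Dlk1 and Grb10 r = 0.91, while H19 and Igf2r had r = -0.82, all descriptions over 6 arrays.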

How the data were processed

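Per the labels' protocols, total RNA described as that of single hearts was labelled with biotin and hybridised to Affymetrix mouse expression arrays. GCOS and RMA appear in the submitters' processing notes without version or role. The table the authors deposited holds intensities, linear by their range. The tool behind them, any scaling between arrays and the genome build are not given in the sources used here. Log2 was taken, since the design had assumed log2 values, with no further normalization.

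The 64 control probe sets were left out. In the platform annotation 34945 probe sets had 1 gene, 932 had several and 9160 had none; symbols were checked through gene identifiers against GRCm38.p6 (34741 matched, 0 changed). Each gene was taken at its probe set of highest mean.

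Tests used limma 3.58.1 in R 4.3.3 with lmFit and eBayes, intensity trend and robust estimation, on all 45037 probe sets, two-sided, with Benjamini-Hochberg adjustment. The fit was also run on simulated data with independent noise and large changes planted in bright probe sets. That run does not show how well differences as small as those of most members would be found. Members, lists and the trend fit were chosen with earlier results of these data known. Named genes were all members, those of each list that passed, the 4 of smallest unadjusted p, and the closest patterns; others were named because their groups did not overlap or for their role, after their values were seen. Nothing in the labels ties arrays to litters, so a p-value reflects only how far these samples spread, which may be technical. No 2 arrays shared more than 1 identical value.

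Alternatives were quantile normalization, median centring, no dim probe sets, no trend, array weights, the letter as a block, 16 units added before log2, each array left out, and averaging the probe sets of a gene. Leaving H19 or Meg3 out of the balance was added after the data were seen.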

Additional observations from a re-analysis of the deposited data

How the results depend on the processing

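Over 13 alternatives the 31 member probe sets gave 400 differences, of which 360 kept direction and side of the threshold. The count of called members stayed at 0 except with the replicate block, at 1 (the brightest Meg3 set, limma adjusted p = 0.0373), and 2 member sets did not overlap. Over all probe sets the calls were 14, against 0 without the trend (2699 at an unadjusted p under 0.05), 25 with array weights, 258 with the replicate block, 3 to 24 with an array left out, and 5873 without overlap. Deviations of same-lettered arrays had correlations of -0.007, 0.05 and 0.08, and those of arrays with different letters ran from -0.069 to 0.021. These values do not settle whether same-lettered arrays share a pattern. At Igf2r 1424112_at arrays c were high and arrays b low in both groups. At Igf2r 1424111_at arrays c were again highest in each group, but the lowest were knockout a and wildtype b. Nothing in the labels ties same-lettered arrays to a litter, so the letters were not taken as pairs. With an array left out, the median over member probe sets ran from 0.03 to 0.25, that over member genes from 0.02 to 0.14, and the balance from -0.08 to 0.01. With the probe sets of a gene averaged the balance was 0.187. It was -0.08 without H19 and 0.03 without Meg3.

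At 18 probe sets the difference changed sign under at least 1 alternative, the largest of them 0.30 (Igf2 1415931_at). With quantile normalization Igf2 1448152_at was 0.0096, Meg3 1429256_at -0.0025, Peg3 1417356_at 0.015 and Grb10 1425457_a_at 0.018. With median centring Meg3 1429256_at was -0.00084, Mest -0.00066, Igf2r 1424112_at -0.063, Igf2r 1424111_at -0.0041 and Plagl1 1426208_x_at -0.030. With array weights Grb10 1425457_a_at was 0.018, Igf2r 1424112_at -0.0054 and Igf2r 1424111_at -0.040. With an array left out the ranges were -0.18 to 0.048 and -0.15 to 0.58 for Igf2, -0.0080 to 0.16 and -0.46 to 0.65 for Dlk1, -0.038 to 0.35 and -0.16 to 0.083 for Peg3, -0.17 to 0.15 for Grb10 1425457_a_at, -0.21 to 0.25 and -0.12 to 0.24 for Igf2r, and -0.0039 to 0.094 for Plagl1 1426208_x_at. For Meg3 they were -0.031 to 0.35 at 1452183_a_at, -0.038 to 0.45 at 1452905_at, -0.033 to 0.20 at 1426758_s_at, -0.14 to 0.69 at 1429257_at, -0.084 to 0.49 at 1428764_at, -0.076 to 0.46 at 1428765_at and -0.091 to 0.27 at 1429256_at. The cause was not tested. Levels near the background of dim probe sets limit the 2 dim Peg3 sets, Dnmt3l and Zfp57.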

Other observations

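Cdkn1c belongs to a family of cyclin-dependent kinase inhibitors measured here through 6 other genes. Of these, 0 passed the limma test and 0 had an unadjusted p under 0.05, where 1585 of all 18193 genes did. Cdkn2c, an inhibitor of the kinases that act with cyclin D, was at 7.18, 7.54 and 6.02 in knockout and at 8.05, 8.27 and 7.30 in wildtype. Its relative Cdkn2d averaged 8.82 ± 0.73 over the knockout and 9.38 ± 0.64 over the wildtype arrays (SD, n = 3 each). Their differences of -0.96 and -0.57 were -0.51 and -0.16 without knockout c. Arrays c were lowest in each group and arrays b highest at both genes. The red cell list followed the same order within knockout, at -0.02, 0.20 and -0.58 in arrays a, b and c, and within wildtype, at 0.09, 0.32 and -0.01. Cdkn1a, the p53 target, was at 6.32, 6.22 and 5.56 in knockout and at 5.86, 5.55 and 4.85 in wildtype, a difference of 0.61 (limma adjusted p = 0.717). Cdkn2b was dimmer, at 3.77 ± 1.55 and 2.25 ± 0.98 (SD, n = 3 each). Cdkn1b, a close relative of Cdkn1c, ranged from 7.14 to 7.50 over the 6 arrays and differed by 0.07, or 0.17 without wildtype b, and Cdkn1c itself ranged from 11.15 to 11.49.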
